A study of Mus musculus with 38 samples.

Results

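Ectopic GATA3 was tested in Th2 cultures that lack STAT6. The comparison sets 1 RNA library of STAT6 KO Th2 cells carrying a GATA3 vector against 1 library of STAT6 KO Th2 cells carrying a control vector, which are 2 of the 14 RNA libraries and 38 samples of the series. Genes were kept where either library had at least 3 FPKM (a read density corrected for gene length and library size), which gave 8923 of 23700 gene entries. Both groups came from C57BL/6J mice with the Stat6<tm1> allele. Naive CD4+ T cells, sorted from lymph nodes and spleen, were activated through CD3 and CD28 with an antibody against interferon gamma, exposed to retrovirus, and cultured to day 5 in Th2 medium with IL-4, to which IL-2 was later added. The same pair of vectors was used in wild-type (WT) C57BL/6J cells, 1 library each, and 2 further libraries hold WT and STAT6 KO Th2 cells that had no vector and were restimulated for 2 h on day 7. The labels do not say whether cells that took up the vector were purified, whether the vector cultures were restimulated, or whether the libraries came from separate animals.

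IL-4 instructs naive CD4+ T cells to become Th2 cells. Its receptor activates STAT6, which induces Gata3, and GATA3, a zinc finger protein that binds DNA at GATA motifs, opens and activates the cytokine locus that holds Il4, Il13 and Il5. Th2 cytokines drive antibody class switching to IgE, eosinophil maturation and mucus production, and GATA3 is also known to restrain the Th1 programme of T-bet (gene Tbx21), STAT4 and interferon gamma. A STAT6 KO cell in IL-4 therefore lacks the usual route to Gata3, and a vector supplies the factor without that route.

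The 250 bases before the start of 7 genes are shown because the results below turn on these genes: the linked Th2 cytokine genes Il5, Il13 and Il4, the other 2 genes of the 3 that were furthest above control (Il9 and Cyp11a1), and the pair furthest below control (Slamf6 and Xcl1). The sequences are from RefSeq on build GRCm38.p6, from the first listed start of each gene, written 5′ to 3′ on the gene's own strand: Il5 at chr11:53720544-53720793, plus strand, Il13 at chr11:53634703-53634952, minus strand, Il4 at chr11:53617339-53617588, minus strand, Il9 at chr13:56482258-56482507, minus strand, Cyp11a1 at chr9:57997774-57998023, plus strand, Slamf6 at chr1:171917212-171917461, plus strand, and Xcl1 at chr1:164935523-164935772, minus strand. Capitals mark any GATA motif, searched on both strands as AGATAA or TGATAA, and with G as the last letter as AGATAG or TGATAG.
Il5: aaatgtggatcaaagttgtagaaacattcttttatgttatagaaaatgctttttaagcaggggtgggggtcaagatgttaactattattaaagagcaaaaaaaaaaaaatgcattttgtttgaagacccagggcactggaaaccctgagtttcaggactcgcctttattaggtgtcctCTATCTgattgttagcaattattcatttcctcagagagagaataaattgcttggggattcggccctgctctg
Il13: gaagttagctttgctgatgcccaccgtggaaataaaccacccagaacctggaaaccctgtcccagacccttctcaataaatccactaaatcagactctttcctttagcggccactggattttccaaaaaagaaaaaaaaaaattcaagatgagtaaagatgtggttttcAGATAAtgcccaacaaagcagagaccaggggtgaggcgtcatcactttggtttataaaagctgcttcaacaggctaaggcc
Il4: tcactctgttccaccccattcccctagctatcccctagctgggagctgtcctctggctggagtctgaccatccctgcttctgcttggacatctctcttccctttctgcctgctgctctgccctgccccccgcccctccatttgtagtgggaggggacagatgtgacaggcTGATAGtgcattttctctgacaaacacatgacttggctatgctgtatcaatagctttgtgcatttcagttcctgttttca
Il9: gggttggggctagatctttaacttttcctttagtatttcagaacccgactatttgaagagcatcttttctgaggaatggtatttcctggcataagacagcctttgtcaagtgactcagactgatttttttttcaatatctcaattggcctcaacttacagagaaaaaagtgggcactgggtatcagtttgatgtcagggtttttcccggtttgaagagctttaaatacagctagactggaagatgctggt
Cyp11a1: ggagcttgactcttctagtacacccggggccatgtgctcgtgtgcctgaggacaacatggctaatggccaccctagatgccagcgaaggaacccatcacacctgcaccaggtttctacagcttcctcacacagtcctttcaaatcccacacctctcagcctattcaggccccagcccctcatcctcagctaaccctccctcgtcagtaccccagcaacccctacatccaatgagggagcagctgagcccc
Slamf6: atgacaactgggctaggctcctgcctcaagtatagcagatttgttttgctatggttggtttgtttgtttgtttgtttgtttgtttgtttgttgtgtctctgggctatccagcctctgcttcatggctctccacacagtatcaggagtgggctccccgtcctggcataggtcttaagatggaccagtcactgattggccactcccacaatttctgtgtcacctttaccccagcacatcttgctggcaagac
Xcl1: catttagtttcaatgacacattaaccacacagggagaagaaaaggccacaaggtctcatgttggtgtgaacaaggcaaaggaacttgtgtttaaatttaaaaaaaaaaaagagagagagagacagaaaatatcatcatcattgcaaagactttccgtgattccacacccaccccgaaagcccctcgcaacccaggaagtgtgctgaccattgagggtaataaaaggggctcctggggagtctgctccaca
Il5, Il13 and Il4 each held 1 match: Il5 has AGATAG on the strand opposite to the gene, 72 to 67 bases before the start, Il13 has AGATAA on its own strand at 81 to 76 bases, and Il4 has TGATAG on its own strand at 80 to 75 bases. No match was present in the windows of Il9, Cyp11a1, Slamf6 and Xcl1. Of all 27025 genes in the promoter table, 27.1% held a match in this window, and of 7138 compared genes with a promoter entry 16.1% did. The share was 21.1% of 331 genes that were 2-fold higher with the vector, 41.2% of 34 that were 8-fold higher (14 genes), and 22.2% of 54 that were 2-fold lower. These sets were not matched for expression level, and the differences between the shares were not tested. A match is a description of letters and no measure of binding.

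Gata3 itself (chr2:9778705-9800227 in build mm9, the build of all gene positions from here on) stood at 29.7 FPKM in the STAT6 KO control vector library and at 377 FPKM in the GATA3 vector library, 12.7-fold higher. In WT cells it stood at 95.7 and 589 FPKM, and in the day 7 cultures at 62.1 FPKM in WT and 14.3 FPKM in STAT6 KO cells. The GATA3 vector library of STAT6 KO cells was therefore above the WT control vector library and below the WT GATA3 vector library. The gene-level values do not separate transcripts of the vector from those of the cell's own gene. Stat6 was read at 36.1 and 23.3 FPKM in the STAT6 KO control and GATA3 vector libraries, against 65.9 and 48 FPKM in WT; a gene-level value does not show whether reads lie in the disrupted part, so it does not check the genotype label.

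Among the 8923 genes, 421 (4.72%) were at least 2-fold higher with the GATA3 vector and 79 (0.885%) at least 2-fold lower, as a difference of at least 1 in log2(FPKM + 1). With 1 library a side there is no replicate check and no p-value. The intervals that Cufflinks lists around each value, which cover counting error only, were apart for 415 of the higher and 69 of the lower genes. Small RNA genes made up 6 of the higher and 10 of the lower ones. Outside these, 127 genes were 4-fold higher and 40 were 8-fold higher, while 0 were 4-fold lower. Quantile normalization of the libraries moved the balance to 349 higher and 134 lower. The genes next to the 2-fold limit lay at 1.003 and 0.9996 on the higher side and at -1.005 and -0.9929 on the lower side.

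Nearly all Th2 cytokine genes were above their control level. Of 12 measured, 11 were 2-fold higher and 0 were lower, where 4.72% of all genes compared were higher. The median log2 change over all 12 was 3.89, against 0.05 over all genes compared. Il9, Il5, Il6, Il24 and Il10 passed the 3 FPKM filter only through the GATA3 vector library, so their place among the higher genes follows from the filter, whereas Il4, Il13, Il31, Csf2, Areg and Il3 were already above 3 FPKM in the control. The same holds for any other gene named here that passed the filter with a control value below 1 FPKM. For a gene that passed with a control value between 1 and 3 FPKM, the filter fixes that it was higher, but not that it was 2-fold higher. Il21, a cytokine of follicular help, was below the filter at 0.0367 and 0.949 FPKM.

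Il4 (chr11:53425963-53432167), the cytokine that starts Th2 differentiation, was at 8.71 FPKM in the STAT6 KO control and 569.8 FPKM with GATA3, 65.5-fold higher, beside 173 and 348 FPKM in WT. Il13 (chr11:53444825-53448204), which acts on airway epithelium and smooth muscle, was at 15.3 and 620 FPKM in STAT6 KO cells, 40.6-fold higher, beside 38.9 and 83.5 FPKM in WT. Il5 (chr11:53534296-53538605), the eosinophil growth factor, was at 0.0993 FPKM, about 5 estimated fragments, and at 208 FPKM, beside 15.4 and 48.8 FPKM in WT. For all 3 genes, the STAT6 KO library with GATA3 was the highest of the 4 vector libraries and the STAT6 KO control the lowest. The genes lying among and beside them were at similar levels in both STAT6 KO libraries. Kif3a, a kinesin subunit next to Il4, was at 1.83 and 2.13 FPKM. Rad50, the DNA repair gene between Il13 and Il5, was at 9.69 and 12.4 FPKM. Irf1, an interferon-induced factor on the far side of Il5, was at 268 and 236 FPKM. Csf2 and Il3, further along the same chromosome, were among the higher genes: Csf2, which encodes GM-CSF, was at 36.6 and 478 FPKM (13.1-fold; WT 102 and 306 FPKM). Il3, a growth factor of mast cells and basophils, was at 501 and 3544 FPKM (7.08-fold; WT 649.5 and 3400 FPKM).

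**Figure D1:**
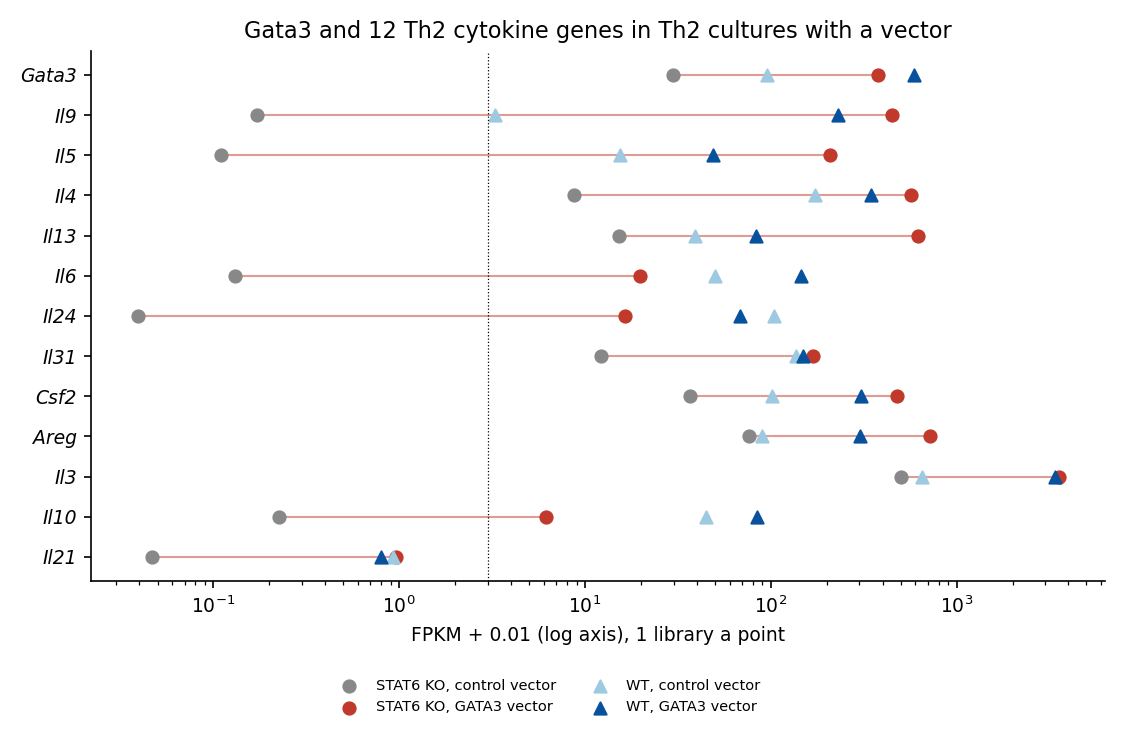
FPKM + 0.01 on a log axis for Gata3 and 12 Th2 cytokine genes, 1 point for each of the 4 Th2 vector libraries (circles STAT6 KO, triangles WT), with a line joining the STAT6 KO pair and a dotted line at 3 FPKM. Il9 spans 0.162 to 448 FPKM in STAT6 KO cells, while Il10 with GATA3 (6.16 FPKM) stays left of both WT points.

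Il9, a mast cell growth factor, had the largest log2 change of all named genes, 8.59. It was at 0.162 FPKM in the STAT6 KO control, about 2 estimated fragments, and at 448 FPKM with GATA3, beside 3.28 and 229 FPKM in WT. Both pairs thus moved from a low level to above 200 FPKM, but the day 7 cultures without a vector had 0.0845 FPKM in WT and 0.0537 FPKM in STAT6 KO cells. Areg, the epidermal growth factor relative amphiregulin, was at 76.3 and 717 FPKM in STAT6 KO cells and 90.2 and 302 FPKM in WT. Il31, an itch-inducing cytokine, was at 12.2 and 169 FPKM in STAT6 KO cells, where it reached the levels of the WT vector libraries, 137 and 149.5 FPKM. At day 7 without a vector it was at 1708 FPKM in WT and 61.7 FPKM in STAT6 KO cells.

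Il6, Il24 and Il10 were higher with GATA3 in STAT6 KO cells but remained below the WT control vector library. Il6, the inflammatory cytokine, was at 0.12 and 19.8 FPKM, beside 50.2 and 145 FPKM in WT. Il24, an IL-10 family member made by Th2 cells, was at 0.029 and 16.4 FPKM, beside 105 and 68.3 FPKM in WT. Il10, the regulatory cytokine, was at 0.216 and 6.16 FPKM, beside 45 and 84.1 FPKM in WT and 894 FPKM in WT at day 7. The Th2 cytokine genes therefore spread from above both WT vector libraries (Il4, Il13, Il5, Il9, Csf2, Areg, Il31, Il3) to below both (Il6, Il24, Il10).

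Some receptor genes were higher with the vector and others stayed near their control level. Of 18 measured Th2 receptor and surface genes, 14 reached 3 FPKM. Of these, 6 were 2-fold higher and 0 lower, where 4.72% of all genes compared were higher and 0.885% lower. The median log2 change over all 18 was 0.31. Il1rl1, which encodes the IL-33 receptor ST2, was at 1.46 and 39.9 FPKM in STAT6 KO cells and 3.16 and 151 FPKM in WT. Cd200r1, an inhibitory receptor, was at 4.5 and 25 FPKM, and Icos, a costimulatory receptor, at 37.7 and 109 FPKM. Il10ra, the IL-10 receptor chain, Ptgir, the prostacyclin receptor, and Cysltr1, a leukotriene receptor, were higher by 1.40, 1.39 and 1.62. The chemokine receptors that mark Th2 cells were at nearly their control level: Ccr4 was at 17.2 and 17.3 FPKM beside 92.1 FPKM in the WT control, and Ccr8 at 12.4 and 15.9 FPKM beside 71.4 FPKM. Il4ra, the receptor chain of IL-4 itself, was at 54.9 and 67.4 FPKM beside 116 FPKM. Tnfrsf8, which encodes CD30, was at 0.077 and 0.313 FPKM beside 33 FPKM, and Il17rb, the IL-25 receptor chain, at 0.0568 and 0.0165 FPKM beside 1.66 FPKM. In the WT pair, Ccr4, Ccr8 and Tnfrsf8 were lower with the GATA3 vector, by -1.23, -1.35 and -1.56 in log2(FPKM + 1).

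Of 18 measured transcription factors of Th2 cells, 14 reached 3 FPKM. Of these, 4 were 2-fold higher and 0 lower, where 4.72% of all genes compared were higher. The median change over all 18 was 0.04. Nfil3, a basic leucine zipper repressor, was at 4.14 and 20.2 FPKM, beside 48.1 FPKM in the WT control. Pparg, the nuclear receptor PPAR gamma, was at 0.121 and 4.42 FPKM, and Batf, an AP-1 family partner of IRF4, at 28 and 68.8 FPKM. Cebpb was at 2.66 and 6.96 FPKM, and its call was lost with quantile normalization, where its change was 0.97. Maf, an activator of Il4, was below the filter at 1.52 and 1.55 FPKM, and Epas1, the hypoxia factor HIF-2 alpha, at 0.209 and 0.457 FPKM beside 21.5 FPKM in the WT control. Irf4 was at 298 and 165 FPKM.

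None of the 20 measured GATA-family and GATA3 partner genes, of which 16 reached 3 FPKM, was called, and the median over all 20 was -0.07. Over all genes compared 4.72% were higher and 0.885% lower, so a list of this size without a call is not set apart from all genes. Gata1, the erythroid relative of Gata3, was at 9.54 and 14.1 FPKM in STAT6 KO cells and at 4.45 and 21.2 FPKM in WT. Zfpm1, the GATA cofactor FOG-1, was at 17.2 and 12.7 FPKM. Runx3, a Th1 and cytotoxic lineage factor, was at 12.6 and 21.5 FPKM, and Tcf7, which encodes TCF-1, at 118 and 64 FPKM. Of 13 measured erythroid and megakaryocyte genes, 0 were called, and 11 were below the 3 FPKM filter.

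Several of the furthest higher genes belong to steroid, histamine and serotonin synthesis or to mast cells and group 2 innate lymphoid cells (ILC2). Cyp11a1 (chr9:57862824-57874830), the enzyme that makes pregnenolone from cholesterol, was at 0.487 FPKM in the control and 330.1 FPKM with GATA3, beside 6.81 and 108 FPKM in WT. At day 7 it was at 91.7 FPKM in WT and 0.344 FPKM in STAT6 KO cells. Hdc (chr2:126419404-126444401), which makes histamine, was at 0.485 and 103 FPKM, beside 0.503 and 263 FPKM in WT. Tph1, the first enzyme of serotonin synthesis, was at 0.0691 and 29.3 FPKM, beside 0.0194 and 2.14 FPKM in WT, and Htr1b, a serotonin receptor, at 0.111 and 25.4 FPKM, beside 19.5 and 33.4 FPKM. Hdc and Tph1 were below 1 FPKM in both day 7 libraries, unlike Cyp11a1. Of the 14 measured ILC2 and memory Th2 genes, 8 reached 3 FPKM. Of these, 7 were 2-fold higher and 0 lower, where 4.72% of all genes compared were higher. The median over all 14 was 1.29. Cyp11a1, Calca and Il1rl1 were among those that passed the filter only through the GATA3 vector library. The place of Cyp11a1 and Calca among the 2-fold higher genes follows from it. For Il1rl1, at 1.46 FPKM in the control, the filter fixes only that it was higher. Areg, Penk and Ptgir were above 3 FPKM in the control. Calca, the calcitonin gene-related peptide gene, was at 0.0789 and 27.8 FPKM, and Penk, the enkephalin precursor, at 33.1 and 253 FPKM. Arg1, an ILC2 metabolic enzyme gene, was near 0 in both libraries, at 0.083 and 0.0241 FPKM.

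Mcpt8, a basophil granule protease, was listed at 0 in the STAT6 KO control and at 42.7 FPKM with GATA3, beside 0.0941 and 59.2 FPKM in WT. The summed level of the 15 mast cell and basophil genes was 1.52 FPKM in the control and 150.1 FPKM with GATA3, nearly all of it from Hdc and Mcpt8. Of the IgE receptor genes, Fcer1a was listed at 0 in all 4 vector libraries and Ms4a2 was at 0.0329 FPKM in the control and listed at 0 with GATA3. Kit, the stem cell factor receptor, was at 0.736 and 1.1 FPKM. Cpa3, a mast cell carboxypeptidase, was at 0.0211 FPKM in the control and 2.33 FPKM with GATA3, below the 3 FPKM filter but higher along with Hdc and Mcpt8. The part of mast cells or basophils in these values was not tested. Markers of other cells were low in both libraries. None of 8 B cell, 12 myeloid and dendritic cell, and 7 CD8 and NK cell genes reached 3 FPKM, and their sums were 1.25 and 1.35, 3.77 and 4.04, and 2.87 and 3.98 FPKM in the control and GATA3 libraries. T cell genes were present at similar levels, with Cd3e at 140.4 and 143 FPKM and Cd4 at 109.7 and 84.9 FPKM. Of 16 genes of the T cell receptor complex and its proximal signalling, 0 were called, where 4.72% of all genes compared were higher and 0.885% lower. In bulk samples a change in the share of cells that express a gene and a change in RNA per cell cannot be told apart.

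Other genes among the 15 furthest above control were Mt1, a metallothionein, at 0.239 and 65.2 FPKM, Asb2, a ubiquitin ligase component, at 0.275 and 54.8 FPKM, Slc7a8, an amino acid transporter, at 0.124 and 24.5 FPKM, and Hamp, which encodes the iron hormone hepcidin, at 0.289 and 22.2 FPKM. All 15 were higher in WT cells too, 14 of them by 2-fold or more, the exception being Htr1b (0.74). Of all genes compared in the WT pair, 4.0% were 2-fold higher. In 13 of the 15 the control library was below 1 FPKM. At day 7 without a vector, 8 of the 15 were 2-fold lower in STAT6 KO than in WT cells, where 6.22% of all genes compared at day 7 were.

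More Th1 genes were 2-fold lower than higher. Of 28 measured Th1 effector genes, 23 reached 3 FPKM. Of these, 7 were 2-fold lower and 4 higher, where 0.885% of all genes compared were lower and 4.72% higher. The median over all 28 was -0.32. Ifng (chr10:117878103-117882948), the defining Th1 cytokine, was at 37.3 FPKM in the STAT6 KO control and 13.9 FPKM with GATA3, 2.68-fold lower, beside 2.4 and 0.945 FPKM in WT. Xcl1, the chemokine lymphotactin, was at 268 and 78.3 FPKM beside 14.4 and 13.4 FPKM, and Lta, which encodes lymphotoxin alpha, at 290.2 and 89.6 FPKM beside 98 and 43.3 FPKM. Cxcr3, the Th1 chemokine receptor, was at 33.9 and 13.1 FPKM beside 9.71 and 4.43 FPKM. In each of these 4 genes the STAT6 KO control was the highest of the 4 vector libraries. Stat4, which transmits the IL-12 signal, was at 19.2 and 7.8 FPKM beside 21.2 and 7.75 FPKM, so the WT and STAT6 KO pairs had nearly the same levels. Tnf and Fasl were lower by -1.20 and -1.12.

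Tbx21, the gene of T-bet, did not pass 2-fold: it was at 40.4 and 24.7 FPKM in STAT6 KO cells, a change of -0.69, and at 2.43 and 2.08 FPKM in WT. With the GATA3 vector Tbx21 thus remained above both WT vector libraries, as did Ifng and Cxcr3. The 4 Th1-list genes that were higher were Gzmb, the cytotoxic protease granzyme B (44.4 and 307 FPKM), Havcr2, the inhibitory receptor TIM-3 (3.91 and 28.3 FPKM), Cxcr6, a chemokine receptor (3.11 and 10.3 FPKM), and Serpinb9, an inhibitor of granzyme B (17.8 and 49.2 FPKM). These 4 were also higher in WT than in STAT6 KO cells at day 7, with Gzmb at 1150 and 265 FPKM. No interferon response gene was called in either direction among 28 measured, of which 23 reached 3 FPKM, with a median of -0.08 over all 28. Over all genes compared, 4.72% were higher and 0.885% lower. Gbp2, an interferon-induced GTPase gene, was at 336 and 289 FPKM, beside 12.9 and 12.2 FPKM in WT, so the difference between the genotypes was kept with the GATA3 vector.

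**Figure D2:**
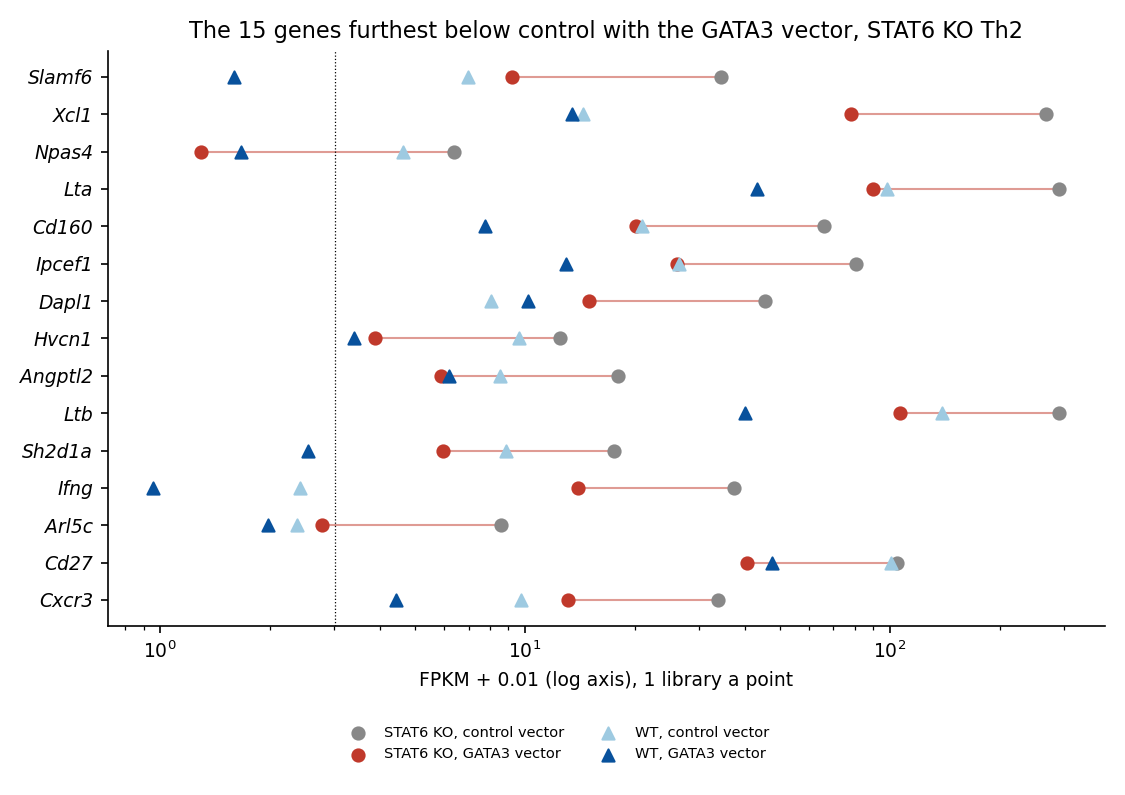
FPKM + 0.01 on a log axis for the 15 genes furthest below control with the GATA3 vector in STAT6 KO Th2 cells, 1 point for each of the 4 Th2 vector libraries (circles STAT6 KO, triangles WT), with a line joining the STAT6 KO pair and a dotted line at 3 FPKM. Except for Npas4, Angptl2 and Cd27, the STAT6 KO point with GATA3 lies right of the WT point with GATA3, as for Ifng (13.9 against 0.945 FPKM).

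The gene furthest below control was Slamf6, an adhesion and signalling receptor of lymphocytes, at 34.4 and 9.2 FPKM, beside 6.96 and 1.58 FPKM in WT. Its adaptor gene Sh2d1a was at 17.6 and 5.94 FPKM, beside 8.84 and 2.54 FPKM. Other genes of this group were Ltb (lymphotoxin beta, 291 and 107 FPKM), Cd27 (a costimulatory receptor, 104 and 40.6 FPKM), Cd160 (66.1 and 20.1 FPKM) and Dapl1 (45.5 and 14.9 FPKM). Of the 15 genes, 14 were lower in WT cells as well, 8 of them by 2-fold or more, where 1.2% of all genes compared in WT were 2-fold lower. At day 7, 11 of the 15 were 2-fold higher in STAT6 KO than in WT cells, where 4.51% of all genes compared were. Dapl1 was the exception in direction, with 8.07 and 10.2 FPKM in WT. Of 16 naive and memory genes 3 were lower and 0 higher, where 0.885% of all genes compared were lower. Their median was -0.37, and Cd27 and Dapl1 were among the lower. Ccr7, which directs cells to lymph nodes, was at 73.6 and 40 FPKM, a change of -0.86, and at 107 and 21.6 FPKM in WT, a change of -2.26.

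Genes of glycolysis had positive changes throughout. All 15 measured were above control in STAT6 KO cells, also after upper-quartile and quantile scaling. By 2-fold, 8 of them were higher, where 4.72% of all genes compared were. The median was 1.01, against 0.05 over all genes compared. The 8 were the glucose transporter gene Slc2a3 (19.6 and 68 FPKM) and the enzyme genes Pgk1 (194 and 505 FPKM), Eno1, Pkm2, Gapdh, Tpi1, Aldoa and Gpi1. Within 2-fold were the hexokinase gene Hk2 at 0.63, the phosphofructokinase genes Pfkl at 0.29 and Pfkp at 0.37, and the glucose transporter gene Slc2a1 at 0.40. In WT cells 0 of the 15 were called, with a median of 0.14 and Pgk1 at 318 and 367 FPKM. Of all genes compared in WT, 4.0% were higher and 1.2% lower. With quantile normalization the count was 5 and the median 0.83. Several of these genes have near-identical pseudogenes, and no source used here says how reads were divided among copies, so single values such as Eno1 at 3.97 and 11.9 FPKM are uncertain. Of 20 cell cycle genes 0 were called in STAT6 KO cells, with a median of 0.25, and of 15 cholesterol synthesis genes 0 were called, with a median of 0.14. Over all genes compared, 4.72% were higher and 0.885% lower.

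**Figure D3:**
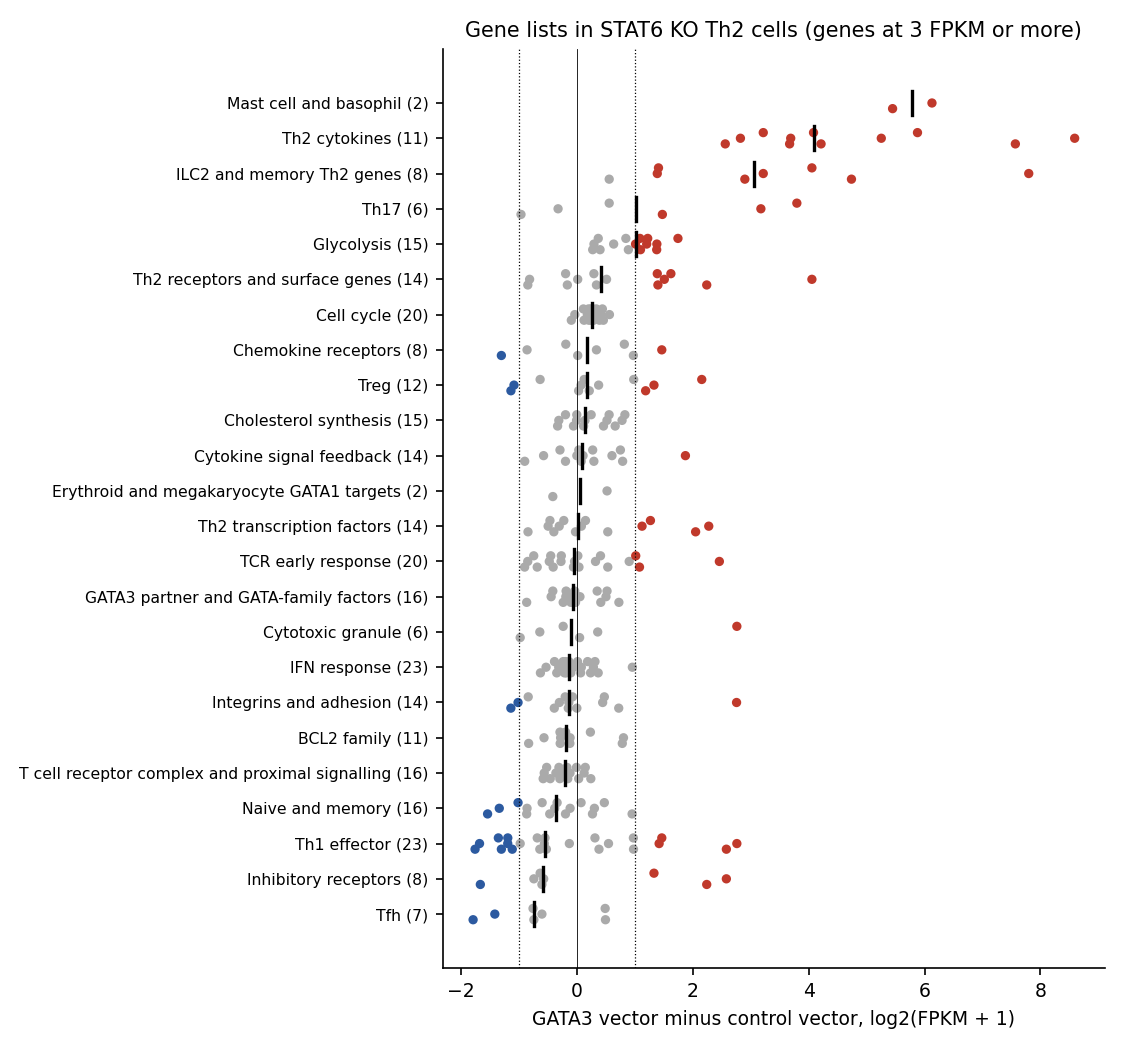
Change with the GATA3 vector in STAT6 KO Th2 cells, GATA3 minus control in log2(FPKM + 1), for members of each gene list with at least 3 FPKM in either library (their number in brackets); red points are at least 2-fold higher, blue points at least 2-fold lower and black bars are medians of the points shown. The Th2 cytokine points all lie right of 2-fold, and the 15 glycolysis points all lie right of 0.

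Genes that depend on STAT6 were defined from the day 7 libraries without a vector, which are not in the vector comparison: 512 genes outside the small RNAs were at least 2-fold lower in STAT6 KO than in WT Th2 cells (6.22% of all genes compared at day 7, small RNAs included). With the GATA3 vector, 156 of them (30.5%) were 2-fold higher in STAT6 KO cells and 2 were lower, while 354 were within 2-fold. Over all 8441 such genes compared at day 7, 3.47% were higher (3.51% with small RNA genes) and 0.735% lower. The median change was 0.61 in the STAT6-dependent genes against 0.04 over all. The 512 were chosen for low values in STAT6 KO cells, and a gene below 1 FPKM in the control cannot be called 2-fold lower. Of the 512, 57 were below 1 FPKM in both STAT6 KO vector libraries. In WT cells 75 of the 512 (14.7%) were 2-fold higher with the vector and 27 (5.27%) lower, against 2.47% and 1.17% of all genes, small RNA genes included. Set against the WT control vector library, the STAT6 KO library with GATA3 had 83 of the 512 at least 2-fold lower, 337 within 2-fold and 92 at least 2-fold higher. Over all genes, 1.38% were lower and 4.63% higher. The same count was not made for the STAT6 KO control vector library, so these counts do not show how many genes reached the WT level with GATA3. Serpinb9 was near WT without it (17.8 FPKM in the STAT6 KO control, 18.5 FPKM in the WT control), whereas Il4 was not (8.71 and 173 FPKM). Of 179 genes with a 4-fold dependence, 73 (40.8%) were higher with the vector and 58 were at least 2-fold below the WT control in the STAT6 KO library with GATA3.

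The 371 genes that were 2-fold higher in STAT6 KO than in WT cells at day 7 (4.51% of all genes, small RNAs included) had a negative median change. With GATA3, 39 (10.5%) were 2-fold lower and 11 higher, with a median of -0.42, against 0.735% lower over all 8441 genes (0.765% with small RNA genes). Among them were Ifng, Xcl1, Cxcr3 and Dapl1, described above, while Tbx21 and Irf1 were within 2-fold.

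**Figure D4:**
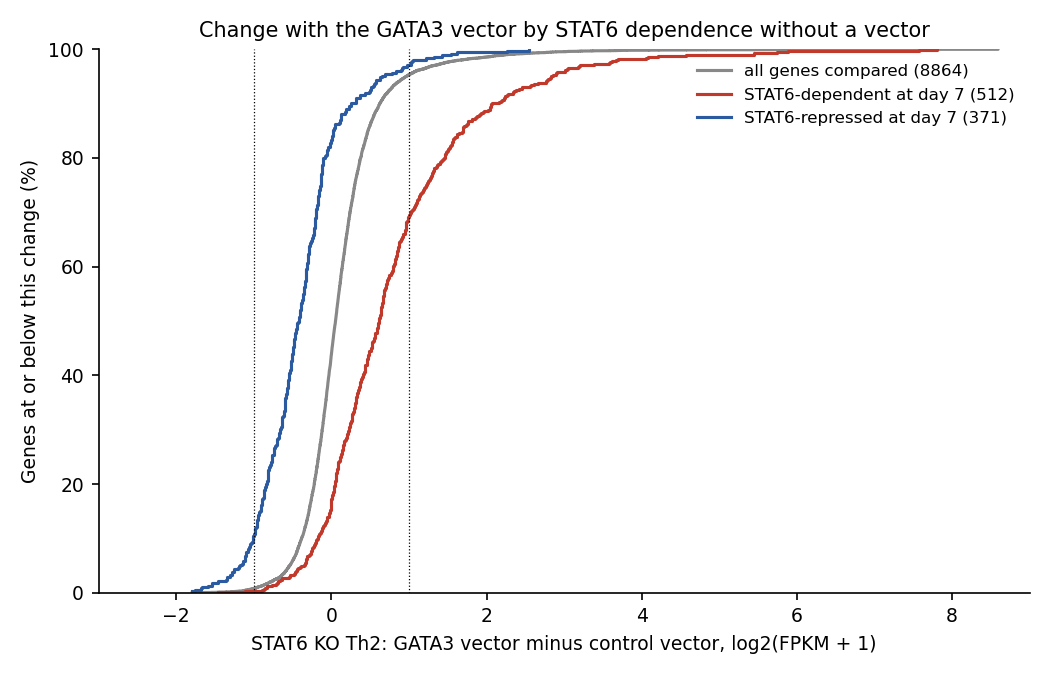
Cumulative percent of genes at or below each change with the GATA3 vector in STAT6 KO Th2 cells, in log2(FPKM + 1). Curves show those of the 512 STAT6-dependent genes at 1 locus, 371 STAT6-repressed genes and all genes compared outside the small RNAs. Dotted lines mark 2-fold. The STAT6 sets were filtered on the day 7 libraries and the curve for all genes on the STAT6 KO vector libraries. Of the 512, 57 were below 1 FPKM in both STAT6 KO vector libraries. The STAT6-dependent curve lies right of the curve for all genes (medians 0.61 over the 512 and 0.05) and the STAT6-repressed curve left of it (median -0.42).

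Among the 20 genes with the strongest dependence on STAT6 at day 7, 12 were 2-fold higher with the vector in STAT6 KO cells, 8 were within 2-fold and 0 were lower. Over all 8441 genes compared at day 7 outside the small RNAs, 3.47% were higher and 0.735% lower. A gene below 1 FPKM in the control cannot be called lower on log2(FPKM + 1). Sval1, 1 of the 20, was listed at 0 in both STAT6 KO vector libraries. The 12 included Il10, Il24, Il6, Cyp11a1, Penk, Htr1b, Il31, Asb2 and Il4, and Csf1, which encodes the macrophage growth factor M-CSF, at 8.32 and 34.1 FPKM. The 8 included Tnfrsf8 and Epas1, given above, and Rnd3, a small GTP-binding protein, at 0.141 and 0.291 FPKM beside 24 FPKM in the WT control. Adamtsl3, an extracellular matrix gene, was at 0.0111 and 0.0172 FPKM beside 2.89 FPKM, and Tube1, which encodes epsilon tubulin, at 3.38 and 3.85 FPKM beside 31.5 FPKM. Ecm1, an extracellular matrix protein gene of Th2 cells, was at 22.1 and 43.8 FPKM in STAT6 KO cells (0.96) and at 51.8 and 553 FPKM in WT (3.39). Of the 20, 11 were still 2-fold below the WT control library, where 1.33% of the 8441 genes were. Among the genes without a 2-fold change, Tnfrsf8, Rnd3 and Tube1 were lower in WT cells with the GATA3 vector, at 10.5, 11.6 and 12.7 FPKM.

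The WT pair shares no library with the STAT6 KO pair, so its changes can be set beside them. In WT, 347 of 8670 genes (4.0%) were 2-fold higher and 104 (1.2%) lower. Over 9048 genes with at least 3 FPKM in any of the 4 libraries, small RNAs left out, 432 were higher in STAT6 KO, 353 in WT and 206 in both, which is 47.7% of the first and 58.4% of the second. Lower genes numbered 70 in STAT6 KO, 93 in WT and 25 in both (35.7% and 26.9%). Of the 432, 393 (91%) had a positive change in WT, where 46.5% of all genes did, and of the 70, 65 (92.9%) had a negative one, where 53.5% did. Pearson's r between the changes was 0.65 across genes, which are not independent replicates. The sizes differed between the genotypes: Hdc changed by 7.45 in WT and 6.13 in STAT6 KO cells, and Il4 by 1.004 and 5.88. Genes that were 2-fold higher in STAT6 KO and 2-fold lower in WT cells numbered 3, namely Ctla2b (2.33 and 10.7 FPKM, against 5.54 and 1.51 FPKM in WT), Cysltr1 and Mmp10, and 0 went the other way. Differences between the pairs were not tested, since each side of each pair is 1 library.

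**Figure D5:**
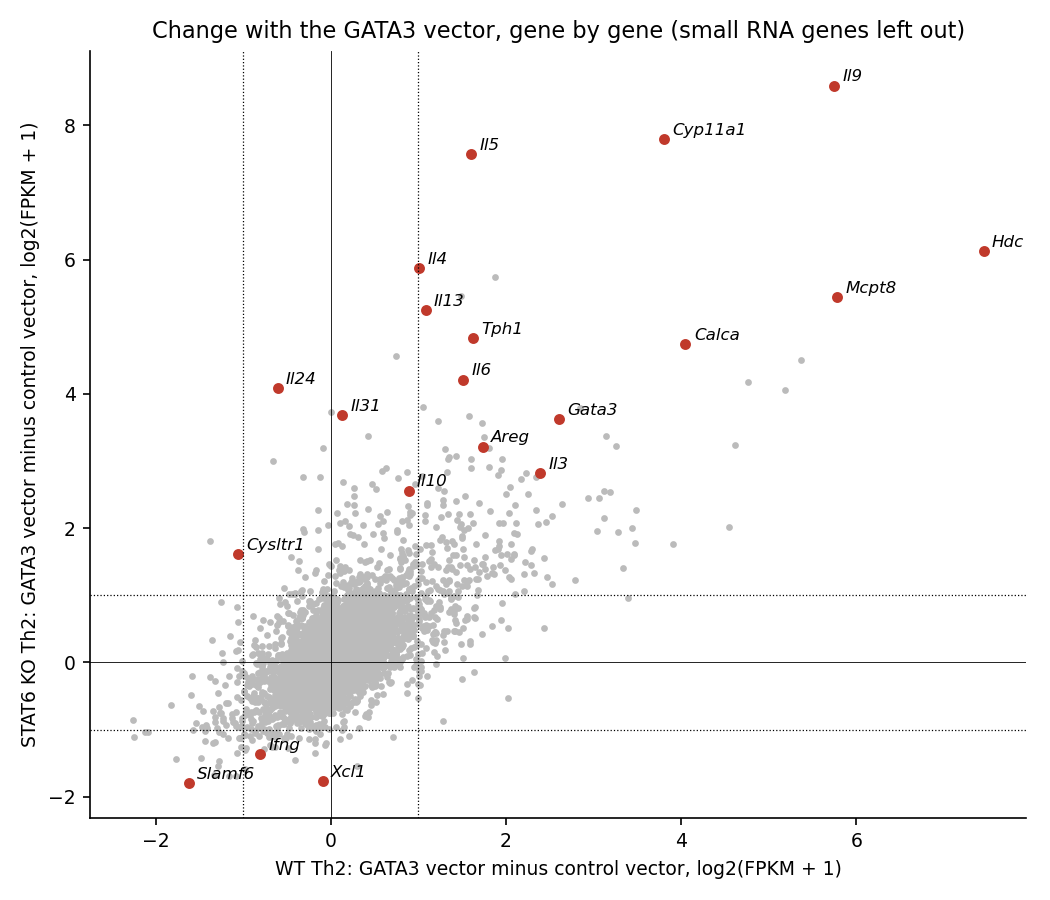
Change with the GATA3 vector in STAT6 KO Th2 cells (vertical) against that in WT Th2 cells (horizontal), each GATA3 minus control in log2(FPKM + 1), 1 point a gene with at least 3 FPKM in either STAT6 KO library, small RNAs left out; dotted lines mark 2-fold. Il4 (1.004 in WT, 5.88 in STAT6 KO) lies high near the 2-fold line of WT, and Hdc (7.45, 6.13) is high in both.

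The vector's effect could be tested only over both genotypes together. A limma model over the 4 Th2 vector libraries, with terms for STAT6 KO and for the GATA3 vector, tested a change shared by WT and STAT6 KO cells over 10294 genes. It called 287 genes higher (2.79%) and 90 lower (0.874%) at a Benjamini-Hochberg adjusted p under 0.05, but 8 and 2 after upper-quartile scaling and 1 and 0 after quantile normalization. Gata3 had a shared log2 change of 3.12 (SE 0.266), with a limma adjusted p of 0.0191, higher in both genotypes, and over the other limma fits run that p ranged from 0.00191 to 0.171. Of the Th2 cytokine genes, Il9 (7.17, SE 0.667), Il3 (2.6, SE 0.259) and Areg (2.48, SE 0.368) were called, with limma adjusted p of 0.021, 0.0235 and 0.0437. The limma adjusted p was 0.0657 for Csf2, 0.0848 for Il6, 0.0927 for Il10, 0.144 for Il5, 0.147 for Il13, 0.164 for Il4, 0.244 for Il31 and 0.384 for Il24. The term sets the mean change of both pairs against the disagreement between the pairs. A gene higher in both pairs by unlike amounts, such as Il4 (5.88 in STAT6 KO, 1.004 in WT), therefore had a large SE (1.135). Il5 was called by limma over all 14 RNA libraries (adjusted p 0.0485) and over the 12 without WT Th1 replicate 2 and T-bet KO Th1 (0.0437, a fit added after the data were seen), Csf2 over the 12 (0.0229), while Il3 and Areg were not called over all 14 (0.202 and 0.119). After upper-quartile or quantile scaling none of these genes was called by limma. Ifng had a change of -1.08 (SE 0.17) and a limma adjusted p of 0.0499, against 0.911 over all 14 libraries. The STAT6 KO pair supplies 2 of the 4 libraries of this fit and these genes were chosen with its values known, so the p-values are no independent support for the changes described above.

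Depth was similar across the pair. From the intervals, about 24710000 fragments in genes were estimated for the STAT6 KO control and 21900000 for the GATA3 library, with 10046 and 10374 genes at 1 FPKM or more. The half-width of the interval came to 15.7% and 16.9% of a gene's level between 1 and 3 FPKM and to 2.02% and 2.28% from 100 FPKM upwards, so genes such as Il24 or Tph1 in the control rest on a few fragments. Small RNA genes held 5.48% and 5.95% of the FPKM. The only group with 2 libraries, WT Th1, differed 2-fold between its libraries in 31.0% of 8686 genes; replicate 2 had 21% of its FPKM in small RNA genes, against 5.54% in replicate 1.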

How the data were processed

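RNA-seq was made from total RNA (mirVana kit) with a TruSeq kit and single reads on an Illumina HiSeq, per the labels' protocols. The authors deposited 1 gene table a library with FPKM values and their intervals from Cufflinks, per the file headers. The submitters' processing notes also name TopHat, SICER and build mm9; for these, no version or gene annotation was given in the sources used here. ChIP samples are not analysed here.

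Tables were joined by symbol and locus. Entries that Cufflinks marked as failed in either STAT6 KO library were left out: 14, of which 11 had at least 3 FPKM. Of the entries, 713 (241 symbols at several loci) could not be tied to 1 locus; these were not named or used in lists. Fragments were estimated from interval widths, and 76.26% to 77.02% of estimates under 30 fragments lay within 0.02 of a whole number, so no count test was run. Changes are differences of log2(FPKM + 1), which understate those of low genes, and are called at 1. Small RNA genes are those of small RNA families or spanning under 300 bp.

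Named were the 15 genes furthest above and the 15 furthest below control (1 locus, no failed estimate, no small RNA gene, not Gata3), Gata3, Stat6, Tbx21, Ifng, the Th2 cytokine list, and listed genes past 2-fold; other genes named were chosen after their values were seen. Values of some genes, 1 of them named by this rule, are not reported here. The members and lists were chosen with earlier results of these data known. Medians over lists cover all measured members. RefSeq promoters were matched by symbol or 1 older symbol (7138 of 8833 compared genes at 1 locus and outside the small RNAs).

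The shared test used limma 3.58.1 in R 4.3.3 (lmFit, eBayes with trend; genes with at least 1 FPKM in 2 of the 4 libraries; 1 residual degree of freedom). The script was tested on simulated data with independent noise, which does not represent the loss of calls under other scalings. Alternatives were the pseudocount, the filters, upper-quartile and quantile scaling, the small RNA genes, the libraries in the fit and the definition of STAT6 dependence. Tables and plots used Python 3.11.15 with pandas 2.3.3, numpy 2.4.6 and matplotlib 3.10.9.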

Additional observations from a re-analysis of the deposited data

Results flagged for a closer look

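Cysltr1, which encodes a receptor for cysteinyl leukotrienes, moved in opposite directions with the GATA3 vector in the 2 genotypes. In STAT6 KO Th2 cells it was at 1.77 FPKM with the control vector and 7.53 FPKM with GATA3, a log2 change of 1.62, and in WT Th2 cells at 9.38 and 3.99 FPKM, a log2 change of -1.06. The difference was not tested, because each side of each pair is 1 library.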

How the results depend on the processing

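Of the 2-fold counts in STAT6 KO cells, 421 higher and 79 lower, 2 moved by over 1.5 times: the higher count was 253 among genes at 10 FPKM or more, where fewer genes were compared, and the lower count was 134 with quantile normalization; the cause of the second was not tested. That scaling moved the median of all genes from 0.05 to -0.05. Of 79 named genes past 2-fold, 0 lost that place with a pseudocount of 0.1, 2 with upper-quartile scaling and 5 with quantile normalization, and none changed sign. Of the STAT6-dependent genes, 73 were higher with the vector where dependence was set at 4-fold, a smaller set of genes. The limma counts, 287 higher and 90 lower, depended on the setting. They were 8 and 2 with upper-quartile scaling, 1 and 0 with quantile normalization, and 0 and 0 with no filter on low values, where 3088 of 20370 genes had an unadjusted p under 0.05 and no other tool was run. Over all 14 libraries they were 161 and 3, and over 12 libraries, chosen after seeing the data, they were 380 and 38. The cause of these moves was not tested. Leaving out each of the 4 vector libraries in turn from the 14-library fit gave 15 to 83 higher (83, 15, 74 and 18 without the STAT6 KO control, STAT6 KO GATA3, WT control and WT GATA3 library) and 0 to 1 lower; the lone library left in an arm is assumed to vary like the others. No paired analysis was possible because each group compared held 1 library. Some genes below 1 FPKM rest on few fragments, which limits the precision of their changes.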

Other observations

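Genes of other T helper programmes also differed between the STAT6 KO libraries. Of 12 measured Th17 genes, 6 reached 3 FPKM. Of these, 3 were 2-fold higher and 0 lower, where 4.72% of all genes compared were higher and 0.885% lower. The median over all 12 was 0.19. Il1r1, the IL-1 receptor (0.168 and 15.2 FPKM, WT 0.319 and 8.52 FPKM), passed the filter only through the GATA3 vector library. The others were Il17f (3.73 and 41.7 FPKM, WT 28.9 and 72.7 FPKM) and Ahr, the aryl hydrocarbon receptor (5.36 and 16.6 FPKM, WT 5.73 and 11.9 FPKM). Il17a was listed at 0 in both STAT6 KO libraries. Of 15 measured Treg genes, 12 reached 3 FPKM, of which 3 were higher and 2 lower. The median over all 15 was 0.12. Gpr83, a G protein-coupled receptor, was at 2.11 and 12.8 FPKM (WT 1.2 and 18.1 FPKM), and Foxp3, the Treg factor, at 8.38 and 3.25 FPKM (WT 0.155 and 0.238 FPKM).

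Of 20 early response genes of the T cell receptor, 3 were higher and 0 lower, with a median of -0.05. Over all genes compared, 4.72% were higher and 0.885% lower. The 3 were Ier3 (10.9 and 64.5 FPKM), Fos (36.6 and 78.3 FPKM) and Fosl2 (51.9 and 105.8 FPKM), the last of which was no longer past 2-fold with upper-quartile scaling (0.99). Of 14 cytokine signal feedback genes, Socs3, a suppressor of STAT3 signals, was higher (20.3 and 77.0 FPKM) and 13 were within 2-fold, Cish at 138.7 and 167 FPKM and Socs1 at 67.7 and 118 FPKM among them. Itga2, the integrin alpha 2 chain, was at 0.485 and 9.02 FPKM, and Itga4, the alpha 4 chain, at 7.29 and 2.76 FPKM. Of 11 measured inhibitory receptor genes 8 reached 3 FPKM, of which 3 were higher (Havcr2, Cd200r1 and Tigit) and 1 lower (Cd160). None of 13 measured BCL2 family genes was called, with a median of -0.12, Bcl2l11, which encodes the death inducer BIM, being at 56.9 and 31.5 FPKM.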
